A study of Arabidopsis thaliana with 4 samples.

Results

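Of the 7470 summits that the authors listed for TCP4 ChIP-seq in Arabidopsis thaliana seedlings, 210 (2.81%) lay in gene-poor megabases. The nuclear chromosomes were cut into 121 bins of 1 Mb from their first base, and a bin was taken as gene-poor when fewer than 150 protein-coding genes had their midpoint in it. The incomplete last bins at the arm tips were kept out of the gene-poor set. This gave 22 bins with 1568 of 27444 protein-coding genes (5.71%), and the 210 summits in them were compared with the 7260 summits of all other bins. The choice used gene positions only and no ChIP value.

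By its name, the list sets a TCP4 overexpression genotype, labelled mTCP4, against wild type, labelled Col, in ChIP with an anti-Myc antibody. Which libraries gave the control level is not stated. There was 1 ChIP library and 1 input library of each genotype, all from seedlings grown in the dark for 4 days. The sources used here do not name the promoter of the transgene or the number of independent lines. Each position is in build TAIR10. The fold of a summit is the authors' ratio of the ChIP pileup to the control level there. With 1 library per group the values have no replicate error and no test between genotypes was made. The summits are not replicates of a condition either, so the 2 sets of summits are set side by side without a p-value. Intervals given below are exact 95% intervals that cover counting error only, except 1 order-statistic interval of a median fold, named where it is given. For the median summit in a gene-poor bin the fold's interval reached from 19.5% below to 22.8% above it.

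TCP4 is a CIN-type TCP transcription factor that promotes differentiation of leaves and cotyledons. Gene-poor megabases of Arabidopsis surround the centromeres, where the pericentromeric heterochromatin is rich in transposable elements and dispersed repeats, carries DNA methylation and histone H3 lysine 9 methylation, and is largely compact. Active genes are nevertheless found there as islands between repeats.

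The gene-poor bins formed 1 unbroken run on each chromosome. On chromosome 1 the run covered 13 to 17 Mb, on chromosome 2 it covered 2 to 7 Mb, on chromosome 3 it covered 11 to 16 Mb, on chromosome 4 it covered 2 to 6 Mb and on chromosome 5 it covered 10 to 14 Mb. The runs held 35, 45, 46, 48 and 36 summits from chromosome 1 to 5. These are 8.75 to 12 summits per Mb, so no single chromosome supplied most of the members. The last bins of chromosome 1 with 133 genes and of chromosome 3 with 148 genes also lay under the gene limit, and their 24 and 42 summits were counted with the other bins because they lie at the arm tips.

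**Figure D1:**
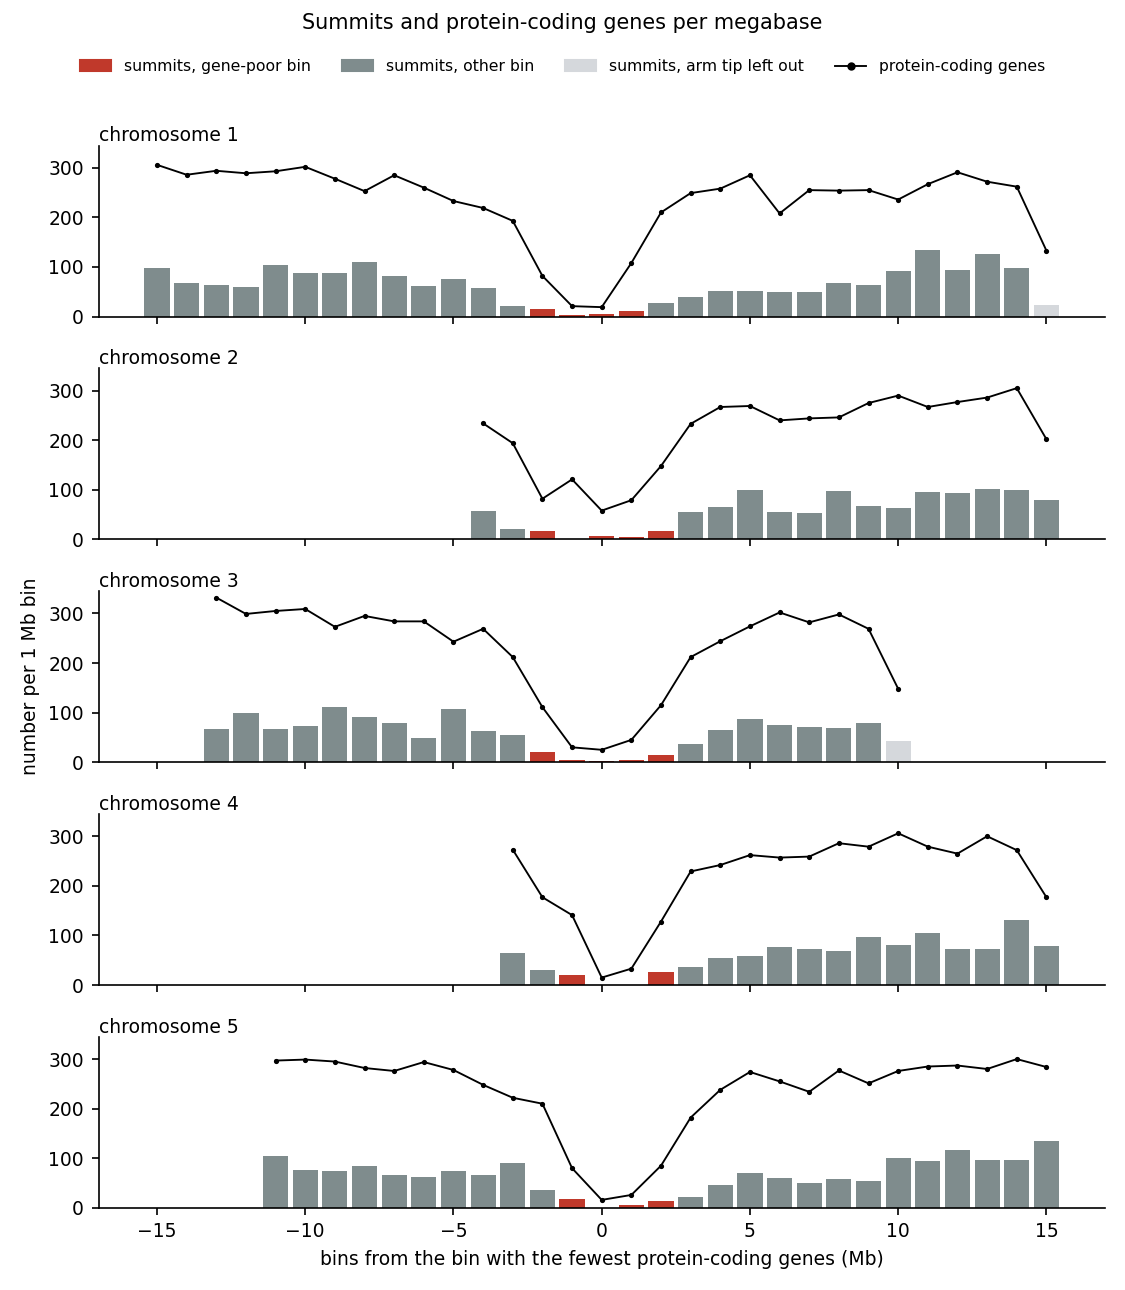
Number of summits (bars) and of protein-coding genes (line) in each 1 Mb bin of the 5 chromosomes, with bins placed by their distance in Mb from the bin with the fewest protein-coding genes. Gene-poor bins (red) held 0 to 26 summits each and form the trough of every chromosome, while other full-length bins (dark grey) held 20 to 134. Light grey bars are incomplete last bins under the gene limit.

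Summits were sparse in these bins even for their low number of genes. Gene-poor bins had 9.55 summits per Mb, against 74.7 in the other bins. Per 100 protein-coding genes they had 13.4 summits, against 28.1 in the other bins. The lower count per gene was seen on all 5 chromosomes, with 9.22 to 17.4 summits per 100 genes in the gene-poor runs and 27.0 to 28.9 elsewhere. The low count per gene did not end at the limit, since bins of 150 to under 200 genes had 12.3 summits per 100 genes, beside 10.9, 15.9 and 12.7 in the 3 gene-poor classes from the fewest genes upward. Bins of 200 to under 250 genes had 25.7. Over full-length bins, summits and genes per bin were related with Pearson's r of 0.762 and Spearman's rho of 0.721 among the 22 gene-poor bins, and with r of 0.553 and rho of 0.502 among the 94 others. These are descriptions across bins of 1 peak list, which share the same libraries, and neighbouring bins are not independent.

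Genes were counted as bound where at least 1 summit fell in a window from 200 bp inside to 1000 bp outside either end, since the gene table gives no strand. In the gene-poor bins 102 of 1568 genes were bound (6.51%, 5.33 to 7.84%), against 4676 of 25876 genes (18.1%, 17.6 to 18.5%) in the other bins and 17.4% of all protein-coding genes. The share was higher in bins with more genes. It was 4.78% in bins of under 50 genes, 6.65% in bins of 50 to under 100 genes and 6.88% in bins of 100 to under 150 genes. Just above the limit, bins of 150 to under 200 genes had 8.45%, whose interval (6.55 to 10.7%) overlapped those of all 3 gene-poor classes. Bins of 200 to under 250 genes had 13.8%, bins of 250 to under 300 genes 18.9%, and bins of 300 or more genes 20.9%. The widest steps thus lay above the limit of 150 genes, at 200 and at 250 genes, and were of similar size.

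**Figure D2:**
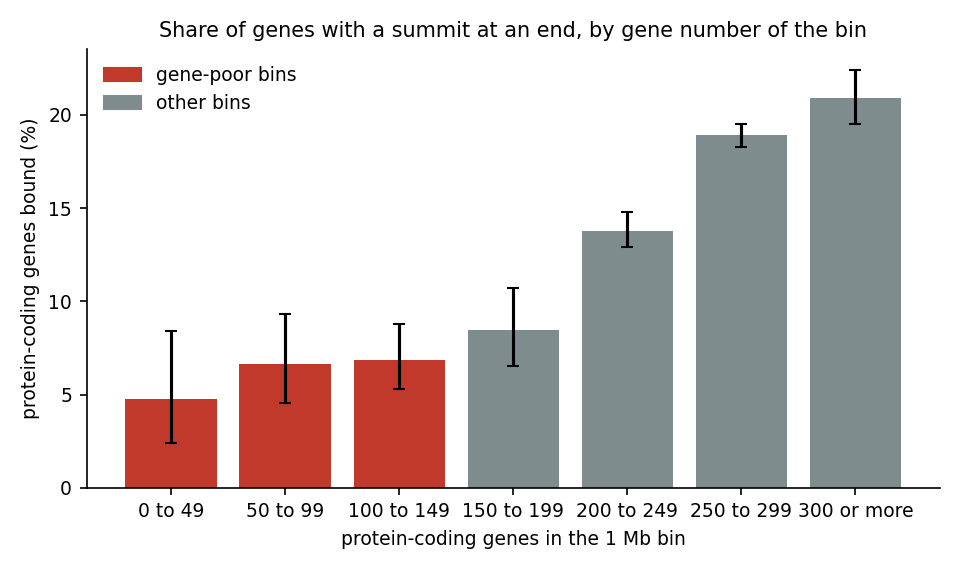
Share of bound protein-coding genes (%), by the number of protein-coding genes in their 1 Mb bin, with exact 95% intervals of counting error. The 3 gene-poor classes (red) lie at 4.78 to 6.88% and the classes above them (grey) at 8.45 to 20.9%.

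Of the bins next to the limit, the gene-poor one had fewer bound genes, but further bins above the limit had as few or fewer. The gene-poor bin with the most genes, at 6 to 7 Mb of chromosome 2, had 148 genes, 17 summits and 15 bound genes. Its highest summit, 129 bp outside AT2G15830 at position 6894814, had a fold of 9.35. The bin with the fewest genes above the limit, at 1 to 2 Mb of chromosome 4, had 177 genes, 30 summits and 25 bound genes. Its highest summit, 973 bp from the nearest end of AT4G03410, had a fold of 8.12. The next bins above the limit, with 182, 193 and 194 genes, had 15, 10 and 13 bound genes and 21, 21 and 20 summits.

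No summit at all was listed in 3 gene-poor bins, while all 94 other full-length bins held at least 20. The bin at 3 to 4 Mb of chromosome 4 had 15 protein-coding genes and the bin at 11 to 12 Mb of chromosome 5 had 16, which are the lowest gene numbers of all full-length bins. The bin at 3 to 4 Mb of chromosome 2 differed from these in having 121 protein-coding genes. For 0 of its 121 genes bound, the limit that a count of 0 allows, taken as 3 counts and not as an exact interval, is a share of 2.48%. Chromosome 2 carries a large insertion of mitochondrial DNA near its centromere in this accession. How many reads could be placed in each bin was not measured here, and its part in the empty bins was not tested. The longest stretches without a summit ran through these runs on every chromosome. They measured 1.44, 1.25, 1.2, 1.35 and 1.69 Mb from chromosome 1 to 5, and held 16, 142, 29, 44 and 34 protein-coding genes. Outside the gene-poor runs the longest stretch was 464 kb, on chromosome 5.

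Within the gene-poor bins, summits kept close to genes. Of the sequence in these bins 75.5% was farther than 1000 bp from protein-coding genes, but it held 62 of the 210 summits (29.5%, 23.4 to 36.2%). In the other bins such sequence made up 14.2% and held 25.2% of summits (24.3 to 26.3%), whose interval overlaps that of the gene-poor bins. By chromosome the share of summits there was higher in the gene-poor runs of chromosomes 1, 3 and 5, with 34.3, 32.6 and 41.7%, against 25.1, 21.3 and 26.5% elsewhere. It was lower in those of chromosomes 2 and 4, with 17.8 and 25%, against 27.5 and 26.2%. Bins of 150 to under 200 genes had 30.4%. The windows at gene ends covered 14.9% of the gene-poor sequence and held 111 summits (52.9%, 45.9 to 59.8%), against 48.3% of the sequence and 62.5% of summits (61.4 to 63.6%) in the other bins. Gene bodies held 71 summits (33.8%, 27.4 to 40.6%) on 13.9% of the gene-poor sequence, against 29.5% of summits on 63.2% of the sequence elsewhere.

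Density per unit of sequence showed how steep this was. In gene-poor bins the first 250 bp outside protein-coding genes had 53.1 summits per Mb (37.2 to 73.5). The band from 250 to 500 bp had 31.6, that from 500 to 1000 bp had 20.9 and that from 1000 to 2000 bp had 14.2. Farther out, densities were 7.49 per Mb from 2000 to 5000 bp, 2.77 (1.27 to 5.26) from 5000 to 10000 bp and 0.48 (0.131 to 1.23) beyond 10000 bp. The interval of the first 250 bp overlapped none of those beyond 500 bp. The last band was the largest, with 8.34 Mb, and held 4 summits.

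The other bins did not show this slope over the first 5000 bp. Their density was 166 summits per Mb in the first 250 bp, 117 from 250 to 500 bp, 156 from 500 to 1000 bp, 155 from 1000 to 2000 bp and 128 from 2000 to 5000 bp, before 51.0 from 5000 to 10000 bp. Beyond 10000 bp they had 0.369 Mb of sequence and 0 summits, which allows up to 10 per Mb. In all 6 bands outside genes up to 10000 bp the intervals of gene-poor and other bins did not overlap. Inside protein-coding genes the densities were nearer to each other, with 23.3 per Mb (18.2 to 29.3) in gene-poor bins and 34.8 (33.4 to 36.3) in other bins.

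**Figure D3:**
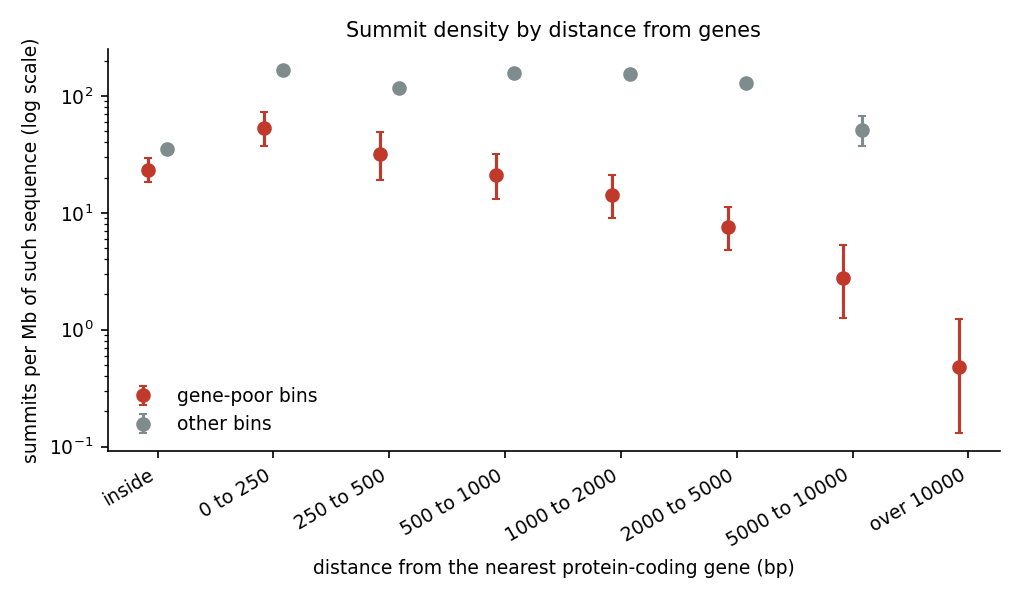
Summits per Mb of sequence (log scale) inside protein-coding genes and in bands of distance from the nearest one, with exact 95% Poisson intervals. Gene-poor bins (red) go from 53.1 in the first 250 bp to 0.48 beyond 10000 bp, while other bins (grey) lie between 117 and 166 up to 5000 bp. Other bins have no point beyond 10000 bp, where they held 0 summits.

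Much of the gene-poor sequence was annotated as pseudogenes, a class that in this gene table holds 3232 entries in the 22 bins and 1611 in all others. The table has no class for transposable elements, so how many of these entries are transposon genes is not known here. Pseudogenes outside protein-coding genes covered 7.48 Mb (34%) of the gene-poor bins and held 2 summits, or 0.268 per Mb. In the other bins they covered 2.87 Mb and held 16 summits, or 5.57 per Mb. The gene-poor sequence in neither kind of gene had 11.9 summits per Mb, against 155 in the other bins. Of the 2 summits inside pseudogenes, that in AT4G05049, next to the polyubiquitin gene UBQ11, had a fold of 2.55 (chromosome 4, position 2587576). That in AT2G15271 had a fold of 4.97 (chromosome 2, position 6639603). Both of these pseudogenes are annotated as transcribed. Within 1000 bp of a pseudogene lay 17 gene-poor summits (8.10%), against 1.69% of the others. The sequence within that distance was not measured. Pseudogenes themselves covered 34% of the gene-poor bins and 2.96% of the others, so these shares do not show that gene-poor summits favour pseudogenes.

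Long non-coding RNA genes held 3 of the gene-poor summits. The strongest was in the long non-coding RNA gene AT3G06615 on chromosome 3 at position 15357260, with a fold of 10.9 (9.49 to 12.4), 1766 bp from the protein-coding gene AT3G43430. Of 334 such genes in gene-poor bins 16 had a summit at an end (4.79%), against 20.2% of 3146 in the other bins. For microRNA genes the counts were 3 of 35 (8.57%) and 14.8% of 291.

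The summits of gene-poor bins covered the same span of fold as the others. Their median fold was 3.64, with quartiles of 2.93 and 5.12 and extremes of 2.15 and 15.4. In the other bins the median was 3.42, with quartiles of 2.76 and 4.70 and extremes of 1.67 and 16.4. The 95% order-statistic interval of the gene-poor median over its summits, 3.41 to 4.04, holds the other bins' median. This interval takes the 210 summits as independent draws, though many lie in groups, so it is a description and no test of the medians. The order of the medians was not the same on every chromosome, with 3.66, 3.99, 4.06 and 3.64 in the gene-poor runs of chromosomes 1, 3, 4 and 5, against 3.41, 3.36, 3.53 and 3.36 elsewhere on them, but 3.30 in that of chromosome 2, against 3.53. A fold above 5 was listed at 58 of 210 (27.6%, 21.7 to 34.2%), against 21.1% (20.2 to 22.1%). Of the 50 highest folds of the whole list 4 (8.0%) were in gene-poor bins, and of the 200 highest 13 (6.50%), where 2.81% of all summits lay. With the whole list cut into 4 equal parts from the lowest fold to the highest, the parts held 39, 54, 50 and 67 of the 210 summits.

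Fragment numbers at the summits were close in both sets, while the control level was lower in gene-poor bins. The number of fragments at the summit, recovered from the pileup, had a median of 88 and a range of 47 to 292, against 86 and 43 to 355 in the other bins. The control level had a median of 15, against 16.5, and 60 summits (28.6%, 22.6 to 35.2%) stood at the lowest control level of the list, 12.9, against 18% (17.1 to 18.9%). Among summits at this lowest level the median fold was 3.88, against 3.72 in the other bins, and above it 3.48, against 3.35. Median −log10 q was 16.1, against 14.2. The part of the lower control level in the fold difference was not tested.

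**Figure D4:**
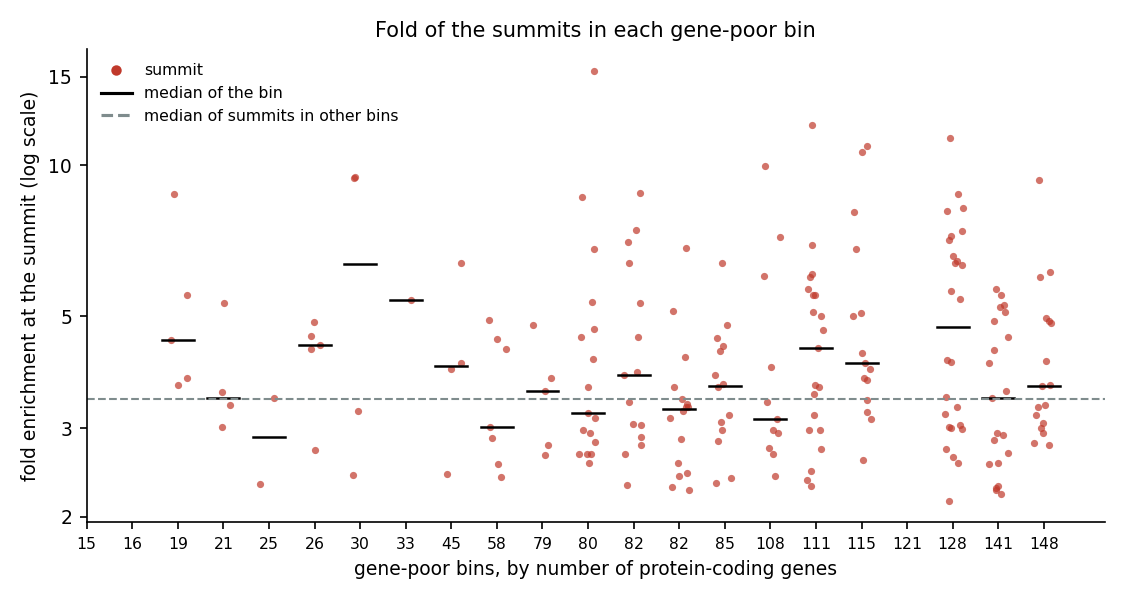
Fold of each of the 210 summits (log scale) in the 22 gene-poor bins, ordered by their number of protein-coding genes, with the median of each bin (black) and of the summits in other bins (dashed, 3.42). Folds above 7 occur in bins with as few as 19 genes, and the bins with 15, 16 and 121 genes hold no summit.

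The strongest gene-poor summit lay inside AN3 (AT5G28640, also GIF1), a transcriptional coactivator that works with growth-regulating factors to promote cell proliferation in leaves. At position 10648832 of chromosome 5 its fold was 15.4 (13.7 to 17.3), with 1234 bp to the nearer end of the gene, and it ranked 2 of all 7470. Around it were 4 lower summits. Outside the gene they lay 755, 198 and 32 bp from the same end, with folds of 2.82, 3.62 and 3.21, and 1 lay 82 bp inside the other end with a fold of 4.11. None of their intervals reached that of the central summit. AN3 stands alone in its neighbourhood, since the next protein-coding genes are 11448 bp and 25880 bp from the summit.

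Of the 20 gene-poor summits with the highest fold (7.20 to 15.4), 10 lay in windows at gene ends, 3 inside a protein-coding gene and 9 farther than 1000 bp from all such genes. Some belong to more than 1 of these classes. Their nearest ends were those of 18 genes, and from chromosome 1 to 5 the numbers were 5, 1, 6, 6 and 2. ERD5, the proline dehydrogenase of mitochondria, had a summit of 9.49 (8.16 to 11.0) at 304 bp from an end, at position 12451860 of chromosome 3. A second one followed 2051 bp farther out, at position 12453911, with a fold of 9.44 (8.11 to 10.9). The 2 values did not differ beyond counting error, and on the far side of the outer one the next protein-coding gene is 35067 bp away. ARGAH2, an arginase, had a summit of 8.77 (7.57 to 10.1) at 1284 bp, at position 5650152 of chromosome 4, and a lower one of 4.06 (3.22 to 5.05) at 257 bp.

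The nitrilase genes NIT1, NIT2 and NIT3, which hydrolyse nitriles including the auxin precursor indole-3-acetonitrile, lie in 1 cluster on chromosome 3. It held 6 summits within 5895 bp, the largest group in the gene-poor bins together with that at AT4G08850. The gap between NIT1 and NIT3 had a summit of 10.6 (9.14 to 12.1) at position 15991149, which lay 1644 bp from NIT1 and 2110 bp from NIT3. The second, 468 bp away at position 15991617, had a fold of 8.07 (6.84 to 9.45) and lay 1642 bp from NIT3. Both were outside the windows, so NIT3 did not count as bound. Between NIT2 and NIT1, summits of 3.94, 5.01 and 5.08 lay in the windows of both genes, and 1 of 3.23 was inside NIT1. The intervals of the higher pair overlapped none of these 4.

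TPPD, a trehalose-6-phosphate phosphatase, was nearest to a summit of 8.81 (7.52 to 10.2) at 3141 bp, at position 13359821 of chromosome 1. BZO2H3, also named bZIP63, a leucine zipper factor of the energy response, was nearest to 1 of 8.63 (7.40 to 10) at 2255 bp, at position 10800560 of chromosome 5. GLR3.3, a glutamate receptor-like channel of long-distance wound signalling, had a summit of 8.76 (7.60 to 10) at 173 bp outside it, at position 15976986 of chromosome 1. That position lies inside the neighbouring gene PMI1. It is in a bin of 19 protein-coding genes, the lowest number on its chromosome.

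Transcription factor genes also lay near some of these 20 summits, beside AN3 and BZO2H3. AGL79, a MADS-box gene, was nearest to the second highest gene-poor summit, 12 (10.5 to 13.7), at position 11905971 of chromosome 3 and 2899 bp from the gene. AT1G35560, also named TCP23, is a TCP family gene outside the CIN type. Its 4 summits on chromosome 1 were at 13115655, 13117160, 13117522 and 13117873, with folds of 3.04, 3.88, 2.66 and 7.43, and the last lay 638 bp outside the gene. MYB6 on chromosome 4 had 2 neighbouring summits of 7.22 and 7.11, at 150 and 287 bp outside 1 end. At its other end were 1 of 2.73 outside and 1 of 2.15 inside the gene, which was the lowest fold of all 210.

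The remaining summits among the 20 were next to genes known in the table by locus tag only. A fold of 11.3 (10 to 12.7) was listed inside AT4G08240, 242 bp from its end and so beyond its window. This summit lay 266 bp outside AT4G08250, which thus counted as bound. It was the highest fold in the windows of any bound gene in gene-poor bins. A fold of 9.97 (8.6 to 11.5) was listed at 72 bp from AT1G43605. AT2G15830 had 9.35 at 129 bp. At AT4G08850 2 summits 621 and 737 bp outside the gene had folds of 8.12 and 8.22. AT4G09420 had 7.38 at 122 bp and AT1G44760 had 7.20 at 2222 bp.

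Gene-poor summits were farther apart than those elsewhere, but some lay in groups. The median distance to the next summit was 2494 bp, against 1242 bp in the other bins, and 70 summits (33.3%, 27.0 to 40.1%) had another within 1000 bp, against 45.1% (44.0 to 46.3%). More than 20000 bp from any other summit were 53 (25.2%), against 5.28%. Joined wherever neighbours were at most 10000 bp apart, the 210 summits fell into 113 groups, 64 of them single summits and 15 of them with 4 or more. Those 15 groups held 68 summits. By the authors' numbering there were 183 peaks, 24 of which (13.1%) had more than 1 summit in the gene-poor bins, against 17.7% of 6037.

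**Figure D5:**
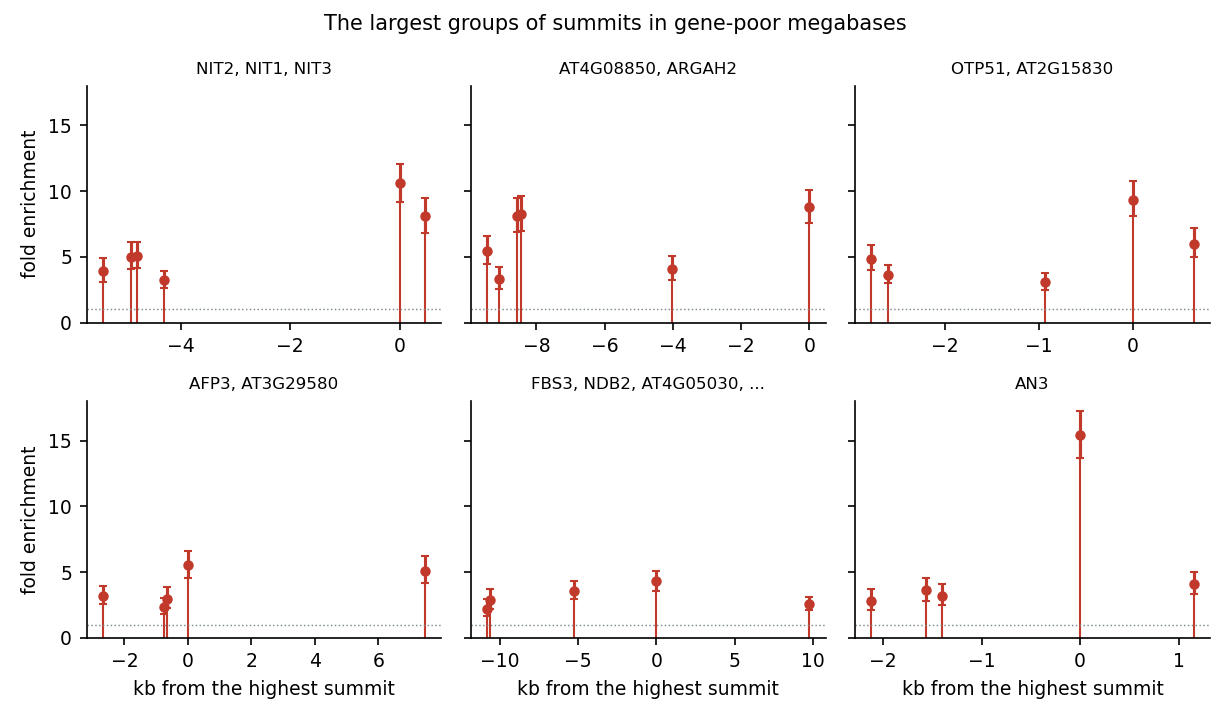
Fold of each summit in the 6 largest groups of gene-poor summits, by distance in kb from the highest summit of the group, with exact 95% intervals of counting error and a dotted line at a fold of 1. The panel titles name the nearest protein-coding genes. At AN3 (15.4) and AT2G15830 (9.35) the interval of the highest summit lies above those of all others in the group, and the nitrilase group has its highest summits, 10.6 and 8.07, at 1 side.

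AT2G15830 and its neighbour OTP51 shared a group of 5 summits over 3432 bp. Beside the summit of 9.35 (8.08 to 10.8), AT2G15830 had 1 of 6.0 (4.95 to 7.21) and 1 of 3.07 (2.45 to 3.8). OTP51, which acts in splicing of plastid transcripts, had 2 of 4.85 and 3.63. Across 20603 bp of chromosome 4 the genes FBS3, NDB2, AT4G05030 and UBQ11 had 5 summits with folds of 2.22 to 4.29, so an extended group was not always a strong one.

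EXO, or EXORDIUM, a brassinosteroid-responsive gene of cell expansion, had summits at 49, 1245 and 3580 bp on the same side, with folds of 6.46, 6.39 and 6.32. These 3 values lay within counting error of each other over 3.5 kb. MES11, a methyl esterase, had 3 summits inside the gene with folds of 6.07, 6.0 and 6.95, and 1 outside at 2252 bp with 3.51. SKS6, a multicopper oxidase-like wall protein, had 4 summits inside the gene and 600 to 2012 bp from the nearest end, with folds of 3.66 to 5.52. NIA2, a nitrate reductase that catalyses the entry step of nitrate assimilation, had a summit 39 bp outside with a fold of 5.33 and 3 others at 3521 to 8133 bp with folds of 3.01 to 3.54. RIPK, a kinase of the RPM1 immune pathway, had folds of 3.42, 2.85 and 6.85 in its windows, the last 1 bp outside the gene. XTH4, a wall-modifying xyloglucan endotransglucosylase, had folds of 3.30, 3.30 and 2.44, none of them in its windows.

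Bound shares were also read by whether the gene table gives a symbol. In gene-poor bins, of 373 genes with a symbol 48 were bound (12.9%, 9.64 to 16.7%), against 54 of 1195 (4.52%, 3.41 to 5.86%) known by locus tag only, and these intervals did not overlap. In the other bins these shares were 21.5 and 15.9%. The median length of genes in gene-poor bins was 2070 bp for bound genes and 1540 bp for the rest, against 2258 and 2070 bp in the other bins. Of the 102 bound genes 20 had 2 or more summits in their windows. AT1G35560, MYB6 and AN3 had the most, with 4 each.

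By gene family, bound shares in gene-poor bins are to be read beside the 6.51% of all genes there. Most listed genes carry a symbol. Of all genes with a symbol, 12.9% (9.64 to 16.7%) were bound in gene-poor bins and 21.5% in the other bins. The shares of single families rest on few genes and are given without an interval. They do not show more binding than among all genes with a symbol. Of 24 genes in transcription factor families 6 were bound (25%), against 28.7% of such genes in the other bins. They were AT1G35560, MYB6, AGL44 (6.14), MYB74 (5.11), AN3 and AFP3 (3.19). AGL44, also ANR1, is a MADS-box gene of the root response to nitrate. Of 16 hormone genes 5 were bound (31.2%), against 33.7%. They were MES11, NIT1 and NIT2 (5.08 at 1 shared summit), HK2 (4.36), a cytokinin receptor, and AFP3, of the family that binds the abscisic acid factor ABI5. None of these 5 belongs to the families first planned for the list (SAUR, IAA, ARF, JAZ, GH3, GA oxidase, ARR, ACS, LOX, PIN, YUC). The ARF, JAZ, GH3, GA oxidase and ACS genes in gene-poor bins were all not bound. Neither were AT1G43040 and AT3G43120, which the hormone list holds by locus tag. The 31.2% thus comes wholly from genes outside the planned families. AN3 is a coactivator and AFP3 an adaptor-like protein, both put with the transcription factors by symbol, and AFP3 belongs to both lists.

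Smaller families gave few counts. Families were listed by symbol or description in the gene table, so members that it names otherwise can be missing from these counts. Of 10 genes listed as receptor kinases 2 were bound, AT5G35810 (3.09) and AT4G04960 (2.68), against 29.3% in the other bins. Of 8 cytochrome P450 and UGT enzymes 1 was bound, CYP71B8 (3.67), against 23.1% in the other bins. Of 3 F-box genes 2 were bound, FBW2 (3.00) and FBS3 (2.90), against 23.7% in the other bins. None was bound of 11 defensin-like and self-incompatibility-like peptide genes, of 4 cell cycle genes, of 3 ribosomal protein genes and of 3 light and clock genes. In the other bins 11.2, 13.5, 12.1 and 46.9% of these were bound, in the same order. A count of 0 in lists this small does not set these lists apart from the 6.51% of all genes in gene-poor bins. Of core histones and centromere proteins the 1 listed gene, MIS12, was not bound, against 24.0% in the other bins. DAYSLEEPER, the 1 protein-coding gene listed as transposon-related, was not bound either, against 11.5%. CRY1, the blue light receptor cryptochrome 1, had its nearest summit 2209 bp away with a fold of 2.63. That summit lies inside the next gene, APRL6, to which it was assigned. LSH1, a gene of light-dependent hypocotyl growth, had 1 of 4.56 at 2302 bp.

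The 4 summits farther than 10000 bp from protein-coding genes had folds between 2.67 and 4.33. At 26871 bp from any protein-coding gene, the summit at position 10240469 of chromosome 5 had a fold of 2.67 (1.99 to 3.50). A pair at positions 2737141 and 2737349 of chromosome 2, more than 16 kb from AT2G06845, had folds of 3.35 and 3.62. The summit at position 11625017 of chromosome 3, 12331 bp from AT3G29785, had a fold of 4.33 (3.6 to 5.16), above the gene-poor median of 3.64. Nearer to genes, 4 summits within 2482 bp on chromosome 5, from 6987 to 9469 bp beyond AT5G35405, had folds of 6.39, 3.83, 4.53 and 4.8. Their next gene on the far side was SOS2, a kinase of salt tolerance, at 20186 bp from the last of them. In the bins with the fewest genes of chromosomes 2 and 3, with 58 and 25 genes, the highest folds were 4.93 (4.02 to 5.99), inside AT2G10553, and 3.45 (2.81 to 4.20), at 222 bp from AT3G32040.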

How the data were processed

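The labels describe 4 libraries, of which 2 are anti-Myc ChIP and 2 are input. Bowtie 0.12.9, MACS2 2.1.1 and the build TAIR10 are listed in the submitters' processing notes. What the calling threshold was, and how the input libraries were used, is not given in the sources used here. The deposited list gives, per the file headers, the interval, the summit, the pileup (a signal), the −log10 p-value, the fold (a linear ratio) and the −log10 q-value of each summit. Of the intervals 7469 were 10000 bp long, so summits were used as positions. All pileups were whole multiples of 0.737 within 0.01, taken as 1 fragment. The control level came from fold and pileup with the caller's pseudocount of 1, and returned the listed p-values within 0.05 for 100% of summits.

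Genes came from a RefSeq table of assembly TAIR10.1 without strand, so both gene ends were used and no gene coordinate is printed. Symbols are those of that table, and a summit was assigned to the protein-coding gene with the nearest end. The code that assigns summits to genes was checked on simulated positions with known answers, which tests no result. Python 3.11.15, pandas 2.3.3 and scipy 1.17.1 were used. Where intervals are given, those of shares are exact (Clopper-Pearson), and those of folds and densities exact Poisson, with the control level held fixed.

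The text names the genes nearest to the 20 gene-poor summits of highest fold and the extreme bins. It also names the bins next to the limit, the most remote summits, the genes with most summits and up to 4 bound genes of each of 11 families. Genes in groups of 4 or more summits, the values of AFP3, CRY1, LSH1, XTH4 and the genes of the closing observations were added after their values were seen. The gene-poor bins and the families were chosen with earlier results of these data known. Planned promoter motif searches were not run, since no sequence was used here. Library totals were not analysed, so depth is known only as fragments per summit.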

Additional observations from a re-analysis of the deposited data

How the results depend on the processing

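No paired analysis was possible because each group had 1 library and no test was made. In all 7 to 12 alternatives run on each result, gene-poor bins stayed on the same side of the other bins: fewer summits, fewer per 100 genes, fewer genes bound, fewer summits at gene ends, more over 1000 bp from genes, and a higher median fold. Single chromosomes did not all follow: the median fold was lower in the gene-poor run of chromosome 2, and the share over 1000 bp from genes in those of chromosomes 2 and 4. The alternatives re-cut 1 list, so their agreement was partly built in. The number of summits (210) was 99 in bins under 100 genes. With all annotated genes counted, 1 bin and 4 summits were left, with 25% at gene ends, 75% over 1000 bp from genes and 4.76% of genes bound. Their median fold was then 3.44, against 3.43 for all other summits, which is hardly a difference. With summits at or above the median fold of the list, 117 were left by construction, with a median fold of 4.97, 3.89% of genes bound and 7.46 summits per 100 genes. Windows of 500 and 2000 bp gave 41.9 and 68.1% of summits at gene ends, and gene bodies included 70.5%, against 43.9, 82.7 and 74.8% in the other bins. Bound genes were then 4.78, 8.61 and 8.04%. Counting all annotated genes put 21.9% of summits over 1000 bp away, against 20.2%. Without the summit-free bin of chromosome 2, an alternative added after the data were seen, 7.05% of genes were bound and 14.5 summits per 100 genes were left. Without replicates, these values say nothing of the spread between seedling batches.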

Other observations

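Some regulatory and hormone genes in the gene-poor bins had summits inside the gene but beyond the windows at its ends, and so did not count as bound. CRK40, a cysteine-rich receptor-like kinase, had a summit 475 bp from its nearest end with a fold of 5.52 (4.73 to 6.41). AT5G28300, a trihelix gene also named GT2L, had 1 of 5.34 (4.46 to 6.33) at 697 bp. BR6OX2, a cytochrome P450 that acts in brassinosteroid synthesis, had 1 of 3.62 (2.82 to 4.58) at 1151 bp. NAC3 had 1 of 2.73 (2.09 to 3.52) at 722 bp, and SERK4, a co-receptor kinase, 1 of 2.77 (2.37 to 3.20) at 264 bp. With whole gene bodies added to the windows, 126 of the 1568 genes in gene-poor bins had a summit inside or within 1000 bp outside (8.04%), against 20.4% in the other bins.

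Further named genes of metabolism in these bins had summits not described above. ACC2, a plastid acetyl-CoA carboxylase, had 2 summits outside 1 end, the farther at 1052 bp, with folds of 6.39 (5.40 to 7.5) and 7.02 (5.95 to 8.22), while its neighbour in the genome, ACC1, had 1 of 2.88 (2.17 to 3.74) at 86 bp inside an end. GME, an epimerase of ascorbate synthesis, had 1 of 6.8 (5.92 to 7.78) at 226 bp inside an end. The sulfate transporter gene SULTR1;1 had its nearest summit at 2377 bp with a fold of 4.09 (3.24 to 5.11). CUE1, a phosphoenolpyruvate translocator of plastids, had 2 at 2135 and 1997 bp with folds of 4.39 and 4.30. OPR3, an enzyme of jasmonate synthesis, had 1 of 2.41 (1.91 to 3.00) at 49 bp inside an end. The polyubiquitin gene UBQ10 had 2 in its windows, 2.56 and 2.30.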
